A study of Mus musculus with 8 samples.

Results

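The type I interferon response genes are transcripts that cells raise when interferon alpha or beta binds its receptor, together with the receptor chains. A list of 37 such genes was read on 8 Affymetrix arrays of mouse regulatory T cells (Tregs), a CD4+ lineage that holds immune responses in check. Members are the genes whose probe set carries exactly 1 symbol, with the brightest probe set kept per gene, and 35 of the 37 were measured among 19937 genes in all. Each measured member had 1 probe set. Isg15 was not analysed because its probe set carries a further symbol, and Ifi44 had no probe set listed under its name. No filter on dim genes was applied, so every measured member entered the test.

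All recipients lacked CD3ε, so that they form no T cells of their own, and all were lethally irradiated before they received donor marrow. In the first group (WT-CD3KO, here WT chimeras) the marrow came from wild-type mice. In the other (IIKO-CD3KO, here IIKO chimeras) it came from IIKO mice, and the labels describe the Tregs of these chimeras as lacking contact between their T cell receptor and MHC class II in the periphery. Mice of both groups are labelled C57BL/6 and 6 to 8 weeks of age. The labels do not say which class II gene the donors lack or how many mice a sample pools. The cells, CD4+ TCRβ+ CD25+ by sort, came from peripheral lymph nodes and spleen 28 days after the transfer, and each array received label from 100 ng of total RNA. Each group had 4 arrays, called biological replicates by the labels. The comparison of the groups asks how Treg transcripts depend on the donor marrow, and any effect of the marrow on the host's other cells cannot be told apart from an effect within the Tregs.

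Type I interferons bind a receptor of the chains IFNAR1 and IFNAR2, whose kinases JAK1 and TYK2 phosphorylate STAT2. It joins IRF9 in the complex ISGF3, which binds the interferon-stimulated response element in the promoters of antiviral genes. IRF7, itself induced, drives further interferon production, and USP18 closes the loop by restraining the receptor. Resting lymphocytes transcribe many of these genes under a low, steady interferon tone.

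The response element is the sequence that links many of these genes, so its core, GAAA followed after any 2 bases by a second GAAA, was looked for on both strands of RefSeq promoters (build GRCm38.p6; 250 bases before to 50 after the start). Of the 35 members, 25 had a promoter in the table. A match was found in 9 of the 25 (36.0%), against 3.99% of the 27025 genes with a promoter. In 6 of the 9 a match lay before the start, and in the other 3 (Ifih1, Ddx58 and Eif2ak2) it lay within the 50 bases after it. The 6 stretches before the start are shown in the direction of the gene, with each match in capitals. Capitals beginning with TTTC are matches on the opposite strand. These are Stat2 at chr10:128270251-128270310 (+ strand), Ifit1 at chr19:34640760-34640838 (+), Ifit3 at chr19:34583348-34583441 (+), Oas3 at chr5:120777700-120777759 (- strand), Rsad2 at chr12:26456538-26456597 (-) and Bst2 at chr8:71537562-71537627 (-).
Stat2: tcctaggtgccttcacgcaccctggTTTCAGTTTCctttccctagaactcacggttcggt
Ifit1: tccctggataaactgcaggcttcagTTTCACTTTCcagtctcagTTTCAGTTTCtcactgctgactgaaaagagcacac
Ifit3: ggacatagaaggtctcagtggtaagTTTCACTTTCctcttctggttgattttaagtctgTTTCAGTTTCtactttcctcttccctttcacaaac
Oas3: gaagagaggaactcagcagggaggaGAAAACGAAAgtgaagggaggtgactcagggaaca
Rsad2: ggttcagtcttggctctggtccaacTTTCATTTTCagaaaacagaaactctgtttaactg
Bst2: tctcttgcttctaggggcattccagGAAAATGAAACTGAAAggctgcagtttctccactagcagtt
Ifit1, Ifit3 and Bst2 each hold 2 matches, and those of Bst2 overlap by 4 bases. Among the matches before the start, the nearest is that of Oas3, which begins 75 bases away. A match is a run of letters and was not tested as a binding site, and the absence of these letters from a window says nothing of the factor.

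Treg transcripts were bright on all arrays. Levels of Foxp3, the lineage's master regulator, were 10.63 ± 0.04 (log2, SD) for the 4 WT and 10.68 ± 0.12 for the 4 IIKO arrays, above the upper quartile of gene levels (8.53). All 8 listed Treg markers were measured, none below the median gene level (7.10), and 0 were called. Of the 14 measured myeloid and dendritic cell markers (15 listed), 12 lay below the median gene level. Of the 7 measured B cell markers (8 listed), 6 lay below it. NK and CD8 T cell markers had 4 of 8 below it, plasmacytoid dendritic cell markers 3 of 7, and the 2 measured erythroid markers (5 listed) 0. Array medians over all probe sets lay between 6.96 and 7.03. Precision is limited by the 4 arrays a group.

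No member passed the test of a difference between the groups. Of the 35, 0 passed the limma test at a Benjamini-Hochberg adjusted p under 0.05 over all genes, against 0.286% of all 19937 genes. At an unadjusted limma p under 0.05 there were 5 members, each higher in the IIKO chimeras, against 17.3% of all genes in either direction and 5.27% with the IIKO mean higher. These 5 are 14.3% of the members, a share below that of all genes in either direction and above that of genes with the IIKO mean higher. Among the 9968 genes brighter than the median gene, 892 had such a p with the IIKO mean higher, beside 3 of the 32 members there. Those are similar shares. Mx1 and Mx2, below the median gene level, make up the rest of the 5. The smallest adjusted p was 0.209, for Xaf1. In sorted cells read in bulk, fewer cells of a type and less RNA per cell cannot be told apart.

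The differences nevertheless leaned one way. The IIKO mean was above the WT mean for 28 of the 35 members, against 37.1% of all genes and 53.7% of the 9968 genes brighter than the median gene, where 32 of the members lie. The median difference of the members (IIKO minus WT) was 0.12 on the log2 scale, against -0.04 over all genes and 0.01 over the brighter ones. Members share the same 8 arrays and many vary together (median r of pairs 0.616, below), so the count is not one of independent observations. Between single arrays of a group, the median level of the members had an SD of 0.14. Member differences ran from -0.30 for Oasl2 to 0.45 for Mx1. Leaving out 1 array in turn moved the difference by over 1.5 times, or turned its sign, for 29 of the 35 members, most often IIKO array 2 (23 members); the other 6 were Irf9, Ddx58, Oas3, Mx2, Samhd1 and Xaf1. Single arrays also moved the summaries. The median difference was 0.19 without IIKO array 4, 0.07 without WT array 4 and 0.06 without IIKO array 2. The number at an unadjusted p under 0.05 was 12 without IIKO array 4, 3 without WT array 3, and 2 without WT array 1, WT array 4, IIKO array 2 or IIKO array 3. Over all genes the share under that p ran from 12.7% without IIKO array 1 to 20.3% without IIKO array 4. Groups did not overlap, with every IIKO array above every WT array, for 1 of the 35 members (2.83% of all genes), Samhd1. The reverse held for 0 members (7.69% of all genes).

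**Figure D1:**
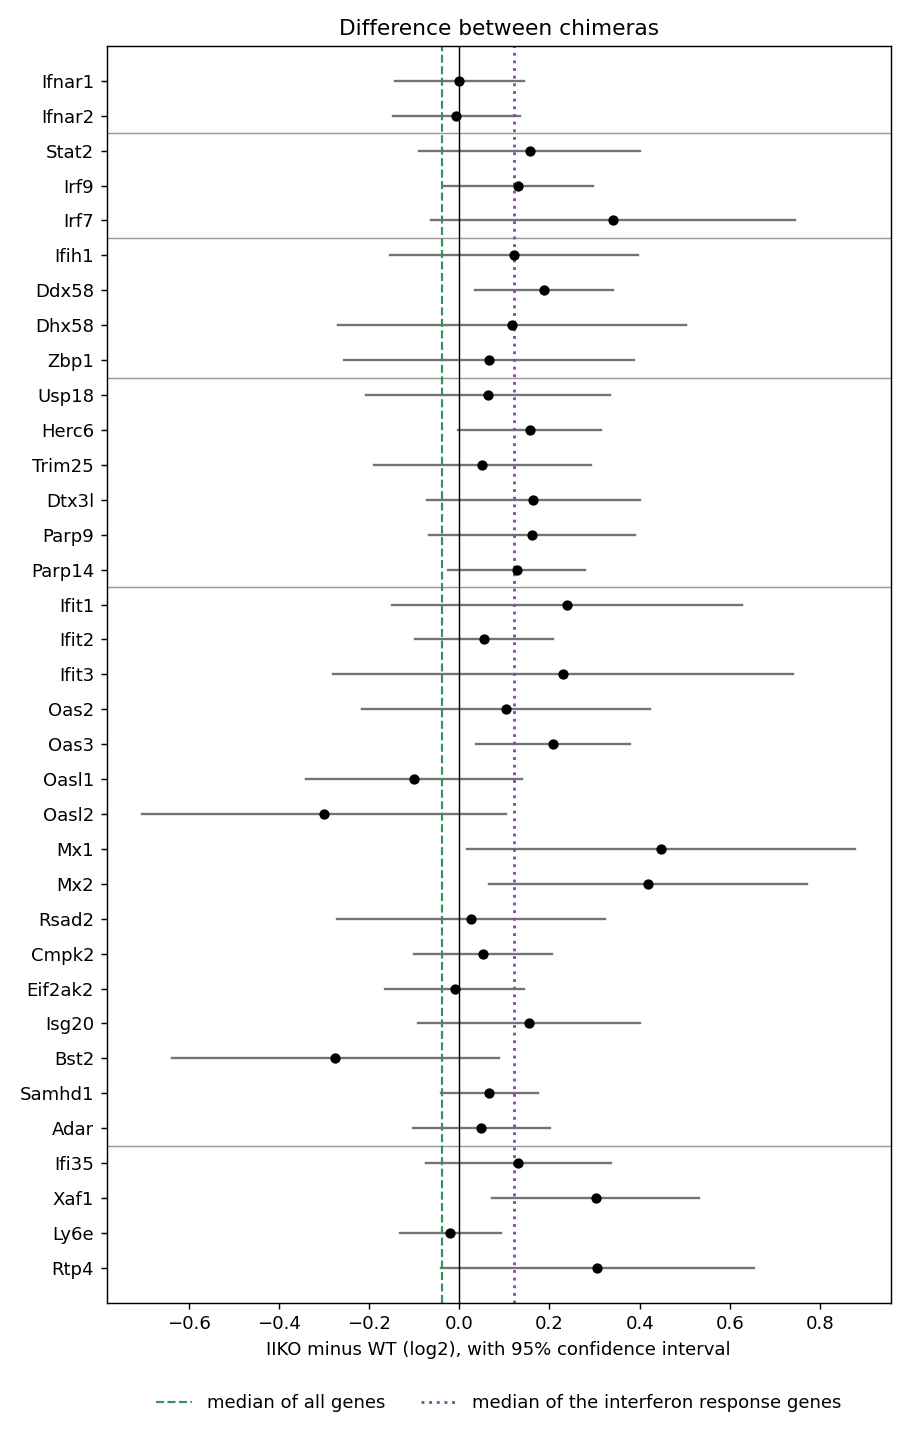
IIKO minus WT difference of each of the 35 measured members (points, log2) with the 95% confidence interval from limma (bars), grouped by role with lines between the groups. The dashed line is the median of all genes (-0.04) and the dotted line the median of the members (0.12); 28 points lie above 0, and 5 intervals lie wholly above it.

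The receptor chains had the smallest differences among the role groups. Ifnar1 stood at 9.91, 10.12, 10.04 and 9.95 on WT arrays 1 to 4 and at 10.03, 10.09, 9.97 and 9.94 on IIKO arrays 1 to 4. Its groups overlapped throughout, and the difference was 0.00 (95% confidence interval -0.14 to 0.14). Ifnar2, the chain that docks STAT2, was at 10.16, 10.35, 10.42 and 10.27 in WT and 10.28, 10.26, 10.32 and 10.32 in IIKO chimeras. The 4 IIKO values lay inside the WT range, and the difference was -0.01 (95% confidence interval -0.15 to 0.13). Signs of differences this small turned with the scaling: with arrays centred on their medians Ifnar1 differed by 0.05 and Ifnar2 by 0.04. Both genes lie on chromosome 16 as neighbours.

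The 3 transcription factors each had a higher IIKO mean, within the spread of the arrays. Stat2 was at 9.50, 9.68, 9.39 and 9.22 in WT and 9.62, 9.69, 9.75 and 9.35 in IIKO chimeras. The groups overlapped, with array 4 lowest in both (difference 0.16 ± 0.11, SE; limma adjusted p = 0.475). Irf9, the DNA-binding subunit of ISGF3, was at 9.31, 9.58, 9.35 and 9.33 in WT and 9.54, 9.56, 9.60 and 9.40 in IIKO chimeras. WT array 2 alone reached the IIKO range (difference 0.13 ± 0.07; adjusted p = 0.381). Irf7, the amplifier of the response, was at 8.21, 8.52, 8.17 and 7.97 in WT and 8.34, 8.997, 8.77 and 8.13 in IIKO chimeras. Array 2 was highest and array 4 lowest in both groups, and IIKO array 4 lay below WT arrays 1, 2 and 3. Its difference was 0.34 ± 0.18 (adjusted p = 0.353), with a 95% confidence interval of -0.06 to 0.74. Irf7 lies on chromosome 7, and 0 of the 20 nearest tested genes on either side were called. That count was 1 for Isg20, also on chromosome 7, and 1 for Eif2ak2 on chromosome 17, and 0 for every other member.

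All 4 sensors of foreign nucleic acid had positive differences. Ddx58, which encodes the RNA helicase RIG-I, was at 9.64, 9.81, 9.68 and 9.63 in WT and 9.80, 10.01, 9.92 and 9.79 in IIKO chimeras. WT array 2 was the single WT value above any IIKO array. The difference of 0.19 ± 0.07 (SE) had an unadjusted p of 0.0214 and an adjusted p of 0.224 (limma). Ifih1, the sensor of long double-stranded RNA, spread from 9.48 to 9.75 in WT and from 9.50 to 10.04 in IIKO chimeras. Dhx58, a helicase that modulates both, ran from 7.06 to 7.83 and from 7.27 to 7.92. Zbp1, a sensor of Z-form nucleic acid that can start necroptosis, ran from 10.50 to 10.95 and from 10.47 to 11.18. Adjusted p values of these 3 lay between 0.627 and 0.835.

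Enzymes of the ISG15, ubiquitin and ADP-ribose systems were 6 measured genes, and all 6 had a higher IIKO mean, with 0 past the test. Herc6, the mouse ligase that attaches ISG15 to proteins, was at 9.87, 9.84, 9.76 and 9.85 in WT and 9.98, 10.15, 9.99 and 9.83 in IIKO chimeras. Every IIKO array except array 4 lay above all WT arrays (0.16 ± 0.07, SE; limma adjusted p = 0.294). Parp14, an ADP-ribosyltransferase, was at 9.92, 9.85, 9.91 and 10.002 in WT and 10.01, 10.22, 10.01 and 9.96 in IIKO chimeras, with WT array 4 above IIKO array 4. Its difference was 0.13 ± 0.07 (adjusted p = 0.354). Parp9 and Dtx3l, which act as a pair, differed by 0.16 each and sit beside Parp14 on chromosome 16. Usp18, which removes ISG15 and restrains the receptor, differed by 0.06 ± 0.12 and Trim25, a ligase acting on RIG-I, by 0.05 ± 0.11. Their differences became -0.01 and -0.02 without WT array 4.

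Antiviral effectors were the largest group, with 16 measured genes, 12 positive and 4 negative, 3 of them at an unadjusted p under 0.05 (Oas3, Mx1 and Mx2) and 0 past the adjusted test. Oas3, an oligoadenylate synthetase that activates RNase L, was at 7.28, 7.31, 7.20 and 7.07 in WT and 7.36, 7.49, 7.55 and 7.29 in IIKO chimeras. Only IIKO array 4 fell within the WT range (0.21 ± 0.08, SE; limma adjusted p = 0.224). Oas2, its neighbour on chromosome 5, was at 7.52, 7.73, 7.56 and 7.70 in WT and 7.54, 7.94, 8.09 and 7.36 in IIKO chimeras. The IIKO arrays straddled the WT range on both sides (0.10 ± 0.14; adjusted p = 0.731). Oasl1 and Oasl2, related proteins, had lower IIKO means, by -0.10 and -0.30. Oasl2 in WT spread from 7.57 to 8.45, with WT array 2 at the top, and without that array its difference was -0.111. That of Oasl1 was -0.223 without IIKO array 3 and -0.044 without IIKO array 2.

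The Mx dynamin-like GTPases had the largest positive differences among the members. Mx1 was at 6.86, 6.92, 6.91 and 6.76 in WT and 7.46, 7.81, 7.30 and 6.66 in IIKO chimeras. IIKO arrays 1 to 3 stood above every WT array, while IIKO array 4 was below all of them. The difference of 0.45 ± 0.19 (SE), 1.36-fold, had an adjusted p of 0.272 (limma), and the adjusted p ran from 0.0722 to 0.461 over the alternatives. The difference was 0.279 without IIKO array 2 and 0.663 without IIKO array 4. Mx2 was at 6.52, 7.03, 6.61 and 6.83 in WT and 6.88, 7.32, 7.55 and 6.91 in IIKO chimeras. WT array 2 exceeded IIKO arrays 1 and 4, and the difference was 0.42 ± 0.16 (adjusted p = 0.232). Averaged over all arrays both lay below the median gene level, where the sizes of differences depend on a background that was not examined. As background, many inbred laboratory mouse strains carry a defective Mx1 gene.

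The Ifit genes, whose proteins bind foreign RNA, varied more from array to array than between groups. Ifit1 was at 8.24, 8.49, 8.32 and 8.00 in WT and 8.29, 8.98, 8.64 and 8.09 in IIKO chimeras. Array 2 was highest and array 4 lowest in both groups (0.24 ± 0.17, SE; limma adjusted p = 0.49). Ifit3 was at 9.88, 10.12, 9.61 and 9.14 in WT and 9.97, 10.37, 9.94 and 9.39 in IIKO chimeras, with the same 2 arrays at the ends. Its pooled SD within groups of 0.41 was the largest of the members and exceeded that of 99.2% of all genes, and its difference was 0.23 ± 0.23 (adjusted p = 0.618). Without WT array 4 the Ifit3 difference was 0.047, without IIKO array 2 it was 0.078 and without IIKO array 4 it was 0.407, and that of Ifit1 ran from 0.08 to 0.375 without these last 2 arrays in turn. Ifit2, between 8.93 and 9.19 on the 8 arrays, differed by 0.05.

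The remaining effectors had differences between -0.27 and 0.15. Rsad2 (viperin) and its chromosome 12 neighbour Cmpk2, a nucleotide kinase, differed by 0.03 and 0.05. Isg20, a 3′ exonuclease, differed by 0.15 ± 0.11, Adar, the RNA-editing deaminase, by 0.05 and Eif2ak2, the kinase PKR, by -0.01, which was 0.04 with arrays centred on their medians. Samhd1, the dNTP hydrolase, ran from 12.10 to 12.18 in WT and from 12.18 to 12.25 in IIKO chimeras, a separation of small size (0.07 ± 0.05; limma adjusted p = 0.487). Bst2, the tetherin that holds budding virions, had the lowest difference after Oasl2, from 9.27 ± 0.19 to 8.99 ± 0.36 (SD, n = 4 each; adjusted p = 0.397). Plasmacytoid dendritic cells also carry Bst2. Of the 8 listed markers of those cells 7 were measured, and their mean ran from 7.23 to 7.30 in WT and from 7.12 to 7.18 in IIKO chimeras. Siglech, a defining one, lay below the median gene level in both groups (6.63 and 6.44). It was 1 of the 3 below that level over all arrays, and the other 4 lay above it (Irf8, Pacsin1, Cox6a2 and Tcf4). Of the 7, Pacsin1 was called (-0.38, limma adjusted p = 0.0417), 5 had lower IIKO means without passing, and Tcf4 had a higher one (0.20, adjusted p = 0.245). The part of these cells in the Bst2 values was not tested.

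Among the other induced genes, Xaf1, a pro-apoptotic partner of XIAP, was at 8.87, 9.15, 9.28 and 8.96 in WT and 9.32, 9.55, 9.42 and 9.19 in IIKO chimeras. The groups overlapped in a single pair, WT array 3 above IIKO array 4, and their means differed by 0.30 ± 0.10 (SE; unadjusted p = 0.0149, limma adjusted p = 0.209). Rtp4, a chaperone of receptor trafficking, was at 10.35, 10.38, 10.34 and 10.19 in WT and 10.45, 11.07, 10.78 and 10.20 in IIKO chimeras. The WT arrays were close together and the IIKO arrays spread over 0.87 (0.31 ± 0.16; adjusted p = 0.335). The difference was 0.158 without IIKO array 2 and 0.447 without IIKO array 4. Ifi35 differed by 0.13 ± 0.09. Ly6e, a membrane protein abundant on lymphocytes, differed by -0.02 (95% confidence interval -0.13 to 0.09), which was 0.03 with arrays centred on their medians.

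**Figure D2:**
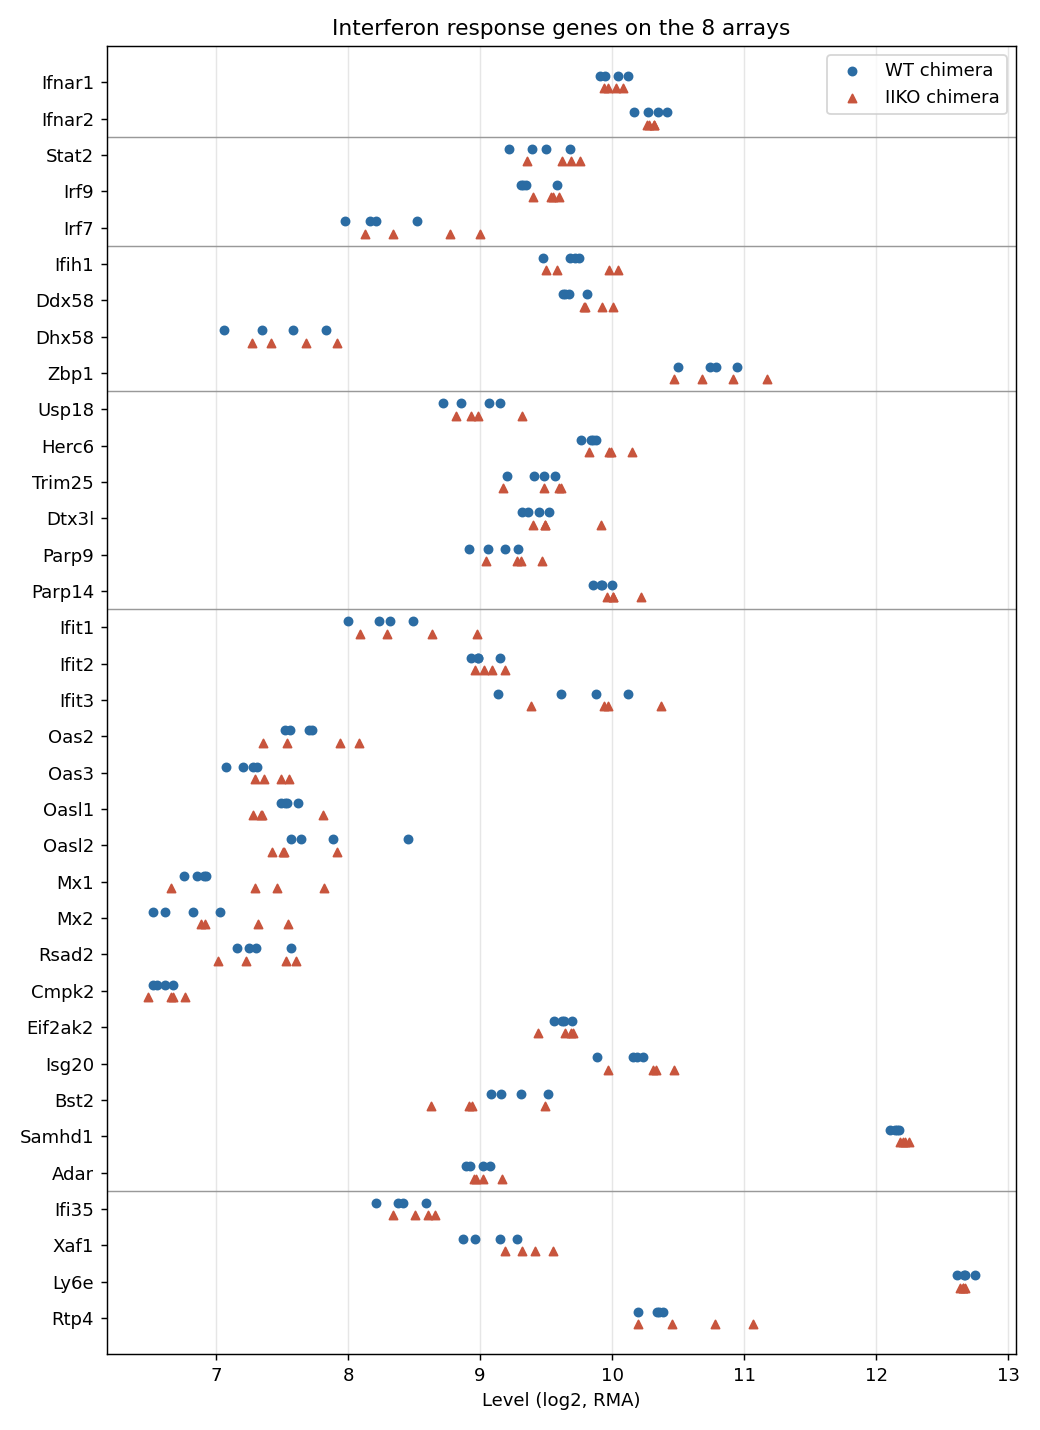
Level of each measured member (log2, RMA) on the 4 WT arrays (circles) and the 4 IIKO arrays (triangles), grouped by role with lines between the groups. The symbols of the groups overlap for 34 of the 35 genes, and the pooled SD within groups is largest for Ifit3, Mx1 and Irf7; levels of different genes come from different probes and are not compared.

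Most members varied more between arrays of 1 group than the median gene did, and many varied together. The SD within groups was above that of the median gene for 24 of the 35 and below it for 11, Samhd1 and Ly6e the lowest. The median SD within groups was 0.18 for the members, against 0.10 for all genes and 0.11 for the brighter ones. After the mean of its own group was taken from every value, the median Pearson r over the 595 pairs of members was 0.616 across the 8 arrays, against 0.01 over all pairs of genes. Of the pairs, 91.9% had a positive r and 62.9% an r over 0.5, against 13.6% of all gene pairs over 0.5. These values describe 8 arrays, whose genes share the same RNA sample, and carry no test. The median r was 0.451 when both arrays numbered 4 were left out, a check chosen after the values were seen, and 0.505 after a further quantile normalization of all genes.

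The ends of this pattern were the arrays numbered 2 and 4. WT array 2 was the highest of the WT arrays for 23 of the 35 members (24.1% of all genes) and WT array 4 the lowest for 23 (26.5% of all genes). IIKO array 2 was the highest of its group for 22 (24.3% of all genes), IIKO array 3 for 12, and IIKO array 4 the lowest for 29 (20.9% of all genes). Array 2 exceeded array 4 in both groups for 30 of the 35 members, against 25.4% of all genes and 35.5% of the brighter ones. The median gap was 0.20 in WT and 0.33 in IIKO chimeras, against -0.01 over all genes in each. The arrays were singled out after their values were seen, so the counts are a description. The labels give no batch, and nothing in them says that equal numbers mark a shared day or litter.

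**Figure D3:**
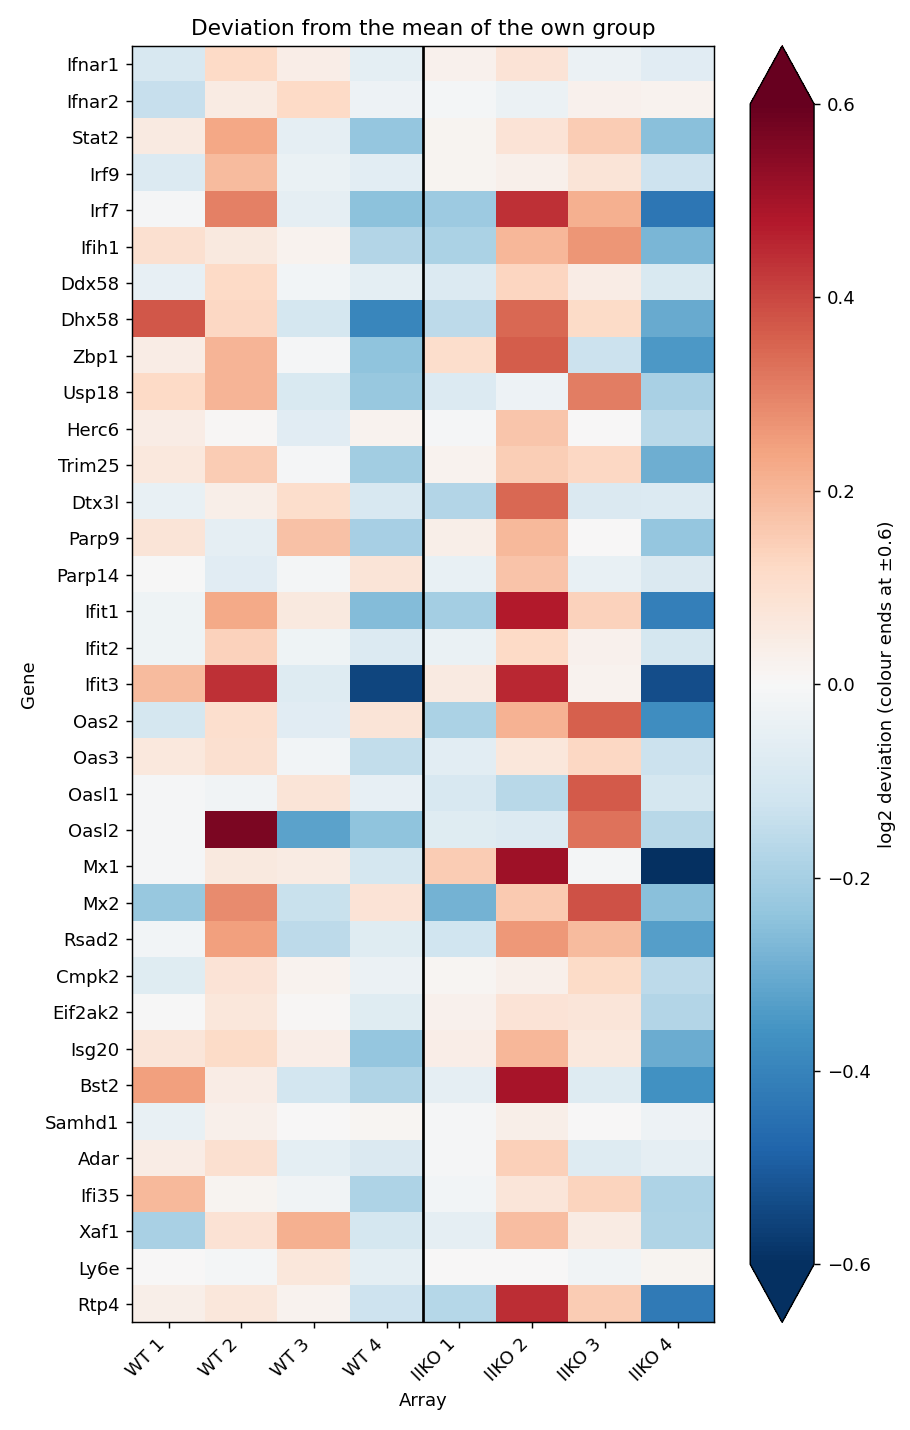
Deviation of each measured member (rows) from the mean of its own group on each array (columns), on the log2 scale, red above and blue below. WT array 2 and IIKO array 2 are red for 31 of the 35 rows each, while WT array 4 is blue for 30 and IIKO array 4 for 33.

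Members took part to different degrees. Ifit3 had the widest gap between arrays 2 and 4 in WT chimeras, 0.985, and the same gap in IIKO chimeras. Irf7 had gaps of 0.55 and 0.87, Ifit1 of 0.49 and 0.89, Dhx58 of 0.52 and 0.65, and Zbp1 of 0.45 and 0.71. Mx1 had the widest gap in IIKO chimeras, 1.15, beside 0.16 in WT, and Rtp4 likewise, 0.87 beside 0.19. Oasl2 did the opposite, with 0.81 in WT and 0.09 in IIKO chimeras. Ifnar2 and Ly6e stood outside the pattern, with a median r against the other members of 0.003 and 0.025, as did Oasl1 (0.159) and Parp14 (0.28). Trim25 and Ifit1 had the highest, 0.769 each, followed by Rtp4 at 0.757 and Irf7 at 0.753.

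Members were also grouped by the letters of the element core in their promoters. The 10 members without a promoter entry, among them Mx1, Rtp4, Zbp1 and Dhx58, were not searched. For the 9 with a match, the median r with the other members ran from 0.683 to 0.769, and for the 16 without one from 0.003 to 0.769. The median SD within groups was 0.211 for the first and 0.128 for the second. Median differences between the chimeras were 0.16 and 0.06. The 16 include the receptor chains Ifnar1 and Ifnar2, and the contrast between the 9 and the 16 was not tested. Irf7 and Trim25, which followed the pattern closely, had no match in the window searched.

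**Figure D4:**
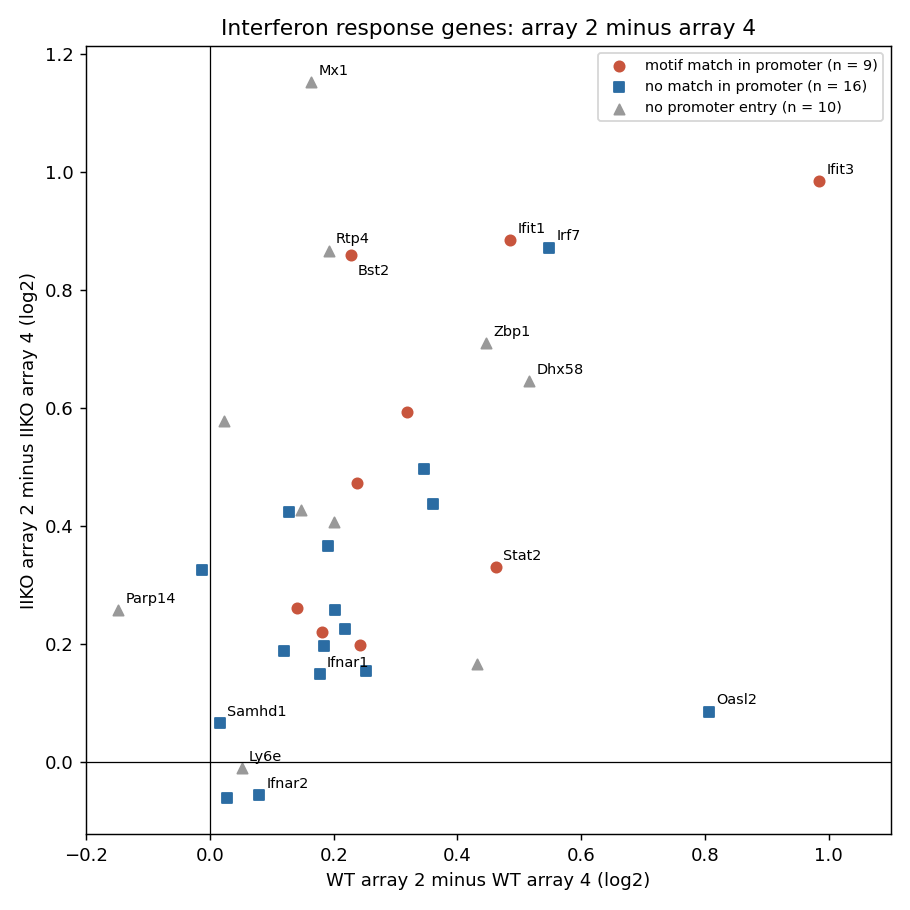
Array 2 minus array 4 in WT (horizontal, log2) and in IIKO chimeras (vertical, log2) for each measured member, marked by whether its promoter holds the motif. Of the 35 points, 30 lie above 0 on both axes, and the 9 genes with a match are all among them.

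Genes of the wider interferon network, from a separate list, moved in a similar order across arrays. Of 67 listed genes 56 were measured. WT array 4 was the lowest of its group for 25 of the 56 and IIKO array 4 for 36. Array 2 exceeded array 4 in both groups for 28. These compare with 26.5%, 20.9% and 25.4% of all genes and 34.6%, 29.1% and 35.5% of the brighter ones. WT array 2 was the highest of its group for 21 of the 56 and IIKO array 2 for 23. The shares of all genes there were 24.1% and 24.3%, and those of the brighter ones 25.4% and 28.8%. Between the chimeras, 0 of the 56 passed the adjusted test and 12 had an unadjusted limma p under 0.05, 11 higher and 1 lower in IIKO chimeras, against 17.3% of all genes in either direction and 5.27% with the IIKO mean higher. Of the 9968 brighter genes, 892 had such a p with the IIKO mean higher. The median difference was 0.07, with 39 positive (37.1% of all genes and 53.7% of the brighter ones) and 17 negative.

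Those with the smallest p were closer to the threshold than any member. Oas1b, of the oligoadenylate synthetase family on chromosome 5, was at 8.42, 8.34, 8.49 and 8.19 in WT and 8.76, 9.01, 8.81 and 8.75 in IIKO chimeras, with no overlap (0.47 ± 0.08, SE; limma adjusted p = 0.0524). Trim21, a cytosolic antibody receptor on chromosome 7, was at 9.96, 9.92, 9.72 and 9.79 in WT and 10.20, 10.31, 10.36 and 10.14 in IIKO chimeras (0.41 ± 0.07; adjusted p = 0.0657). Oas1b passed after a further quantile normalization, with arrays centred on their medians, among the brighter genes alone and with probe sets averaged, and Trim21 passed with centring. Ifitm3, which blocks viral fusion, was at 11.30, 11.56, 11.40 and 11.17 in WT and 12.11, 12.32, 11.71 and 11.71 in IIKO chimeras, with no overlap (0.61 ± 0.14; adjusted p = 0.131). Its chromosome 7 relative Ifitm1 was at 9.34, 10.06, 9.46 and 9.18 in WT and 10.77, 10.996, 10.01 and 9.90 in IIKO chimeras, where WT array 2 exceeded IIKO arrays 3 and 4 (0.91 ± 0.26; adjusted p = 0.169). Array 2 was the highest and array 4 the lowest of both groups for this pair of genes. Pnpt1, a mitochondrial exoribonuclease, was at 8.87, 8.92, 8.94 and 9.09 in WT and 9.10, 9.20, 9.39 and 9.17 in IIKO chimeras, without overlap (0.26 ± 0.08; adjusted p = 0.174). Cxcl10, a chemokine that draws CXCR3+ T cells, was at 7.81, 7.61, 7.78 and 8.19 in WT and 8.52, 9.37, 8.48 and 8.003 in IIKO chimeras (0.75 ± 0.24; adjusted p = 0.195). WT array 4, the highest of its group, lay above IIKO array 4. None of these 6 passed in the test as first described, over all 19937 genes.

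Ifnb1, which encodes interferon beta, was dim on every array, at 5.65, 5.81, 5.63 and 5.69 in WT and 5.58, 5.85, 5.48 and 5.72 in IIKO chimeras, under the lower quartile of genes (6.04). Ifng, the type II interferon, which induces many of these genes, was at 8.74, 9.49, 8.24 and 8.03 in WT and 8.94, 8.52, 8.55 and 8.19 in IIKO chimeras. Its WT arrays 2 and 4 were the highest and the lowest, and IIKO array 4 was the lowest of its group. IIKO array 2, however, lay below IIKO arrays 1 and 3. Irf1, a target of interferon gamma, was at 9.51, 9.62, 9.32 and 9.24 in WT and 9.73, 9.58, 9.43 and 9.39 in IIKO chimeras. Array 4 was again lowest in both, while the highest was array 2 in WT and array 1 in IIKO chimeras. The part of interferon gamma in the members' values was not tested. Neither Ifng nor Irf1 differed between the groups past the test (limma adjusted p = 0.903 and 0.569).

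Marker lists of other cells were set beside the arrays. The mean of the 8 NK and CD8 T cell markers was 6.74, 6.82, 6.76 and 6.49 on WT arrays 1 to 4. On IIKO arrays 1 to 4 it was 6.49, 6.46, 6.60 and 6.40. It was highest on WT array 2 and IIKO array 3 and lowest on array 4 of both groups. IIKO array 2, where most members were highest, lay below IIKO arrays 1 and 3. For the 14 myeloid and dendritic cell markers the mean was 6.42, 6.39, 6.36 and 6.69 in WT, where array 4 was highest, and 6.50, 6.49, 6.75 and 6.31 in IIKO chimeras, where array 4 was lowest. B cell markers (7) were at 6.44, 6.23, 6.48 and 6.46 in WT, where array 2 was lowest, and 6.30, 6.32, 6.40 and 6.38 in IIKO chimeras. The 7 plasmacytoid dendritic cell markers were at 7.30, 7.25, 7.25 and 7.23 in WT and 7.15, 7.12, 7.14 and 7.18 in IIKO chimeras, where array 4 was highest. Array 4 was singled out after the members' values were seen, so its place in these lists is a description. The 2 erythroid markers were at 7.27, 7.37, 7.45 and 7.47 in WT and 6.87, 7.395, 7.23 and 7.24 in IIKO chimeras. The brighter genes as a whole had median deviations of -0.02 on WT array 4 and -0.01 on IIKO array 4. The part of any of these in the members' values was not tested.

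**Figure D5:**
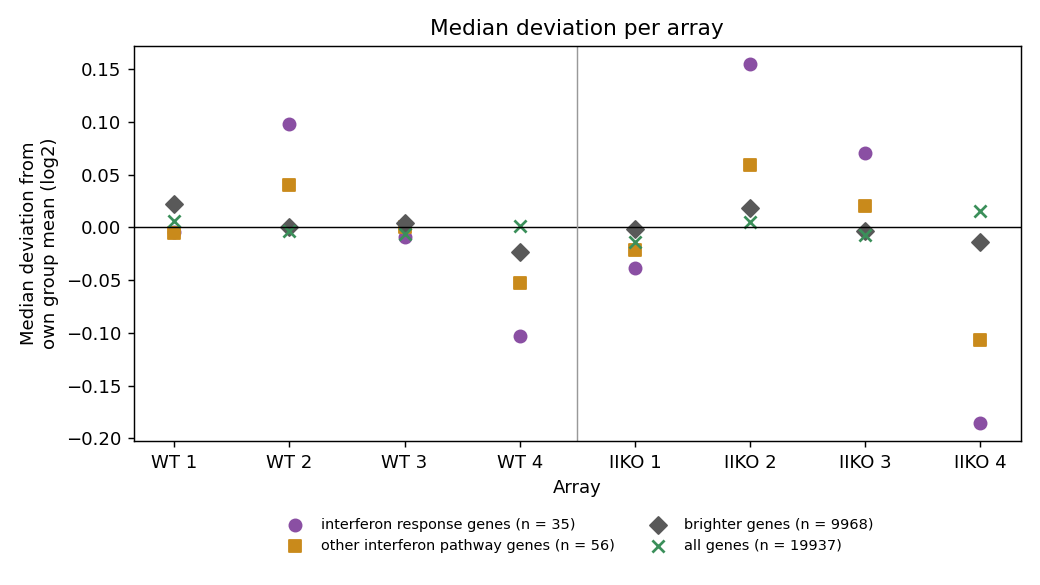
Median deviation from the own group mean (log2) on each array for the 35 members, the 56 other interferon pathway genes, the brighter genes and all genes. The members lie at 0.10 and 0.15 on WT and IIKO array 2 and at -0.10 and -0.19 on WT and IIKO array 4, with the other pathway genes between them and the medians of the brighter and of all genes.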

How the data were processed

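The authors deposited log2 values, 1 per probe set, and the submitters' processing notes name affy and RMA, with no version. Probe-level data were not used, so background was not examined. Of 34760 probe sets, 21640 had 1 gene symbol in the platform annotation, 1321 had several and 11799 none, and the last 2 kinds were left out. The brightest probe set per gene left 19937 genes. Gene order and chromosomes came from a mouse reference table (GRCm38.p6) and promoters from RefSeq; the array annotation names no build. No array repeated another (SD of the difference between 2 arrays at least 0.185).

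Groups came from the sample titles. The test was that of limma 3.58.1 under R 4.3.3 (lmFit, eBayes, IIKO minus WT, two-sided, Benjamini-Hochberg over all genes, threshold 0.05). Since the labels do not describe the pooling, p-values measure the spread of these samples, which may be technical in part. Per-array values are printed for the receptors and factors, the 10 members with the smallest p, the 3 most variable and the first-named of each family (Ifit1, Oas2 and Mx1; Isg15 was not measured); of the other pathway genes, the 6 with the smallest p, Irf1, Ifnb1 and Ifng. Members, lists and tests were chosen with earlier results of these data known. Alternatives were a threshold of 0.01, a replicate block, median centring, further quantile normalization, the brighter genes, trended robust variance, array weights, averaged probe sets and each array left out. Leaving out both arrays numbered 4 was added after the values were seen. On simulated arrays of 19937 genes with 200 changed, limma recovered 90.1% of changes of 0.5 log2 and 99.6% of changes of 1, with 4.47% false calls. That noise had no correlation between genes, and its SDs were shuffled over all genes. The median SD within groups is 0.10 for all genes and 0.18 for the members. No change under 0.5 was simulated, while member differences ran from -0.30 to 0.45. These rates therefore do not tell how often changes of the members would be found. Figures used Python 3.11.15 and matplotlib 3.10.9.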

Additional observations from a re-analysis of the deposited data

Results flagged for a closer look

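Within groups of 4 arrays, 3 of the 70 groups checked (35 members in 2 groups) had an array far from the others, and chance gives about 1 in 20. Irf9 on WT array 2 stood at 9.58, above the other WT arrays at 9.31 to 9.35. Parp14 on IIKO array 2 stood at 10.22, above the others at 9.96 to 10.01. Oasl1 on IIKO array 3 stood at 7.81, above the others at 7.28 to 7.35.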

How the results depend on the processing

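No member passed under any of the alternatives run, whose lowest adjusted p was 0.0722 (limma, Mx1), and the median difference of the members stayed positive under all of them. The count of all genes past the threshold, 57, was 21 at 0.01, 31 with the replicate block, 32 without both arrays numbered 4 and 32 to 50 with 1 array left out. With arrays centred on their medians it was 81, of which 71.6% were higher in IIKO chimeras against 56.1% as reported. The equal replicate numbers were not taken to pair the arrays: correlations of same-numbered deviations over all genes were 0.045, -0.015, -0.068 and 0.22, over the members 0.134, 0.108, -0.383 and 0.498, and 1 of the 4 WT arrays correlated best with its own number. With the replicate block, 10 members had an unadjusted limma p under 0.05 in place of 5 (17.3% of all genes in each case). That count was 9 with centring (14.9% of all genes) and 3 among the brighter genes (15.4% of them), where 32 members remain. It was 10 without both arrays numbered 4 (16.8% of all genes) and 2 to 12 with 1 array left out. The other pathway genes past the threshold were 1 after quantile normalization, among the brighter genes and with averaged probe sets, and 2 with centring. With 1 array left out, 0 members passed, 24 to 31 differences were positive, the median difference was 0.06 to 0.19, the median r was 0.479 to 0.691 and 0 other pathway genes passed. Some differences turned sign. With centring these were Ifnar1 (0.05), Ifnar2 (0.044), Eif2ak2 (0.04) and Ly6e (0.03), with array weights Ifnar1 (0.003), and without both arrays numbered 4 Ifnar1 (0.004) and Eif2ak2 (0.025). With 1 array left out, Ifnar1 ranged from -0.033 to 0.04, Ifnar2 from -0.052 to 0.033, Eif2ak2 from -0.038 to 0.049, Rsad2 from -0.061 to 0.136, Zbp1 from -0.055 to 0.182, Usp18 from -0.038 to 0.131, Ly6e from -0.04 to 0.003, Dhx58 from -0.014 to 0.242, Trim25 from -0.019 to 0.148 and Oas2 from -0.016 to 0.227. Of these, Dhx58 (0.117 with all arrays) and Oas2 (0.103) had differences near the members' median of 0.12. The cause of the changes of sign was not tested. With 4 arrays a group the 95% interval of the most variable member, Ifit3, ran from -0.28 to 0.74.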
